A study of Mus musculus with 8 samples.

Results

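Retinoic acid genes were followed in astrocytes from cortical and subcortical tissue. The 8 genes, out of 55417 gene rows per library, cover synthesis (Rdh10 and Aldh1a1), breakdown (Cyp26b1), carriage in the cytosol (Crabp1) and the nuclear receptors (Rara, Rarb, Rxra and Rxrb). They were chosen by symbol, with the cortical and subcortical values of these same libraries already known, so their differences by region are given as a description without a test. All 8 matched 1 row by Ensembl identifier. The cells were flow-sorted astrocytes of WT mice at postnatal day 29, and each of 4 mice, 2 female and 2 male, gave 1 cortical and 1 subcortical library. The gate or reporter that defined an astrocyte in the sort is not given in the sources. The study concerns β-adrenergic signalling and the maturation of astrocyte shape, and these libraries compare cortical with subcortical tissue, with no treatment named in the labels.

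Retinoic acid is made from vitamin A in a pair of oxidations. Retinol dehydrogenases such as RDH10 turn retinol into retinal, and retinaldehyde dehydrogenases of the ALDH1A family turn retinal into retinoic acid. CYP26 enzymes hydroxylate the acid and so clear it, and CRABP proteins bind it in the cytosol. In the nucleus it binds RAR receptors, which act as heterodimers with RXR receptors on repeated short sites in DNA, and several genes of the pathway itself, among them Rarb and Cyp26a1, are known to be induced by it. In the brain the pathway is known for patterning of the embryonic hindbrain and for roles in neuronal plasticity later in life.

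Of the 7 genes with a RefSeq promoter here, Rarb is the one whose promoter window carries a repeat of the kind that RAR and RXR bind. Of all 8 genes, Cyp26b1 is the one whose level differed most between regions. Both promoters are shown (GRCm38.p6, 250 bases before to 50 after the annotated start, 5′ to 3′ on the strand of the gene), and bases outside these windows were not searched. Capitals mark a match to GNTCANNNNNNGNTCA, which is a direct repeat with 5 bases between 6-base sites (DR5). The Rarb window is chr14:16575427-16575726, minus strand, and the Cyp26b1 window is chr6:84593761-84594060, minus strand.
Rarb: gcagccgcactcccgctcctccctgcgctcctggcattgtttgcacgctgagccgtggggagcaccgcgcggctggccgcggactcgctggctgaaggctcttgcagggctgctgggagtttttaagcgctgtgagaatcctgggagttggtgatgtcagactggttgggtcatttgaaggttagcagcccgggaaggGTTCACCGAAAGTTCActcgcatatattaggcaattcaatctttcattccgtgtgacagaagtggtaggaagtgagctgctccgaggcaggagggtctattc
Cyp26b1: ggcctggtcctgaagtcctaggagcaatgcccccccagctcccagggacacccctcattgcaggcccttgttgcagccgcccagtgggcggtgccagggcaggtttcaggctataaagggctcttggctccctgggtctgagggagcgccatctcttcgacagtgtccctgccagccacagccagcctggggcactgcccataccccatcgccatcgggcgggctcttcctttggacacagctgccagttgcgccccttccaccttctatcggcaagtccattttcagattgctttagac
The match in Rarb spans bases 199 to 214 of its window. Both strands were searched for DR5, for DR2 (GNTCANNNGNTCA) and for DR1 (GNTCANNGNTCA), which can overlap one another. RefSeq gave 13 promoters for 7 of the 8 genes, and Rarb alone held a match to any of the 3 patterns. Over 32851 promoters of the same length, 283 (0.86%) held DR5, 367 (1.12%) DR2 and 413 (1.26%) DR1. Among the other pathway genes described further on, Btg2 and Bco1 each held a DR1, and Cyp26a1 held a DR5 on the opposite strand of its promoter (chr19:37697558-37697857, plus strand), read in the direction of the gene as follows.
Cyp26a1: TGAACTTTGGGTGAAC
A match describes the letters of these windows and is not evidence of binding in these cells.

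Gene counts summed to between 3537852 and 4060891 in each cortical library and between 2484717 and 3829804 in each subcortical one. Levels are given as CPM, counts scaled to an equal library size with TMM (trimmed mean of M-values) factors, and since the libraries read transcript 3′ ends they were not divided by transcript length. A count of 0 in a library still allows 0.70 to 1.44 CPM, by counting error only. All 13 astrocyte markers were detected, at a summed 33772 to 35302 CPM on the cortical side and 22718 to 24877 CPM on the subcortical side, with 4 called higher and 1 lower in cortical libraries. The sum is carried by abundant genes such as Slc1a2, Slc1a3 and Glul, which were higher; Aqp4 was lower, at 415 to 616 CPM on the cortical side and 781 to 1273 CPM on the subcortical side. Oligodendrocyte markers summed to 818 to 1313 CPM on the cortical side and 2178 to 5517 CPM on the subcortical side, and 6 of the 8 were called lower in cortical libraries. Fibroblast and meningeal markers, with Lum at 0, summed to 62.6 to 102 CPM on the cortical side and 156 to 213 CPM on the subcortical side, with 1 of 6 called lower. Ependymal markers summed to 27.2 to 70.9 CPM on the cortical side and 53.7 to 95.2 CPM on the subcortical side, with 1 of 4 (Foxj1) called lower. Microglial markers summed to 160 to 340 CPM on the cortical side and 119 to 198 CPM on the subcortical side, with 3 of 8 called higher. Striatal neuron markers summed to 92.8 to 125 CPM on the cortical side and 62.4 to 81.1 CPM on the subcortical side. Of these 8, 1 was called higher and Tac1 was at 0. Neuron markers summed to 97.2 to 173 CPM on the cortical side and 72.7 to 123 CPM on the subcortical side. Of these 10, 1 was called higher and 1 lower. Choroid plexus markers set the subcortical library of mouse 3 apart (628 CPM, nearly all Ttr, against 1.92 to 7.91 CPM in the other subcortical libraries), and without it the log2 fold changes were -5.55 for Cyp26b1 and -1.73 for Aldh1a1. Of the dopaminergic markers, Th, Slc6a3, Slc18a2 and Pitx3 had 0 counts in all 8 libraries. Ddc had 0 to 6.20 CPM on the cortical side and 0 to 7.24 CPM on the subcortical side. Nr4a2 had 1.98 to 7.47 CPM on the cortical side and 0 to 6.69 CPM on the subcortical side. Since these are bulk samples, fewer cells of a type and less RNA per cell cannot be told apart.

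Cyp26b1 (ENSMUSG00000063415), whose product clears retinoic acid, was nearly absent from cortical astrocytes and abundant in subcortical ones. It had 1.49, 0.782, 3.04 and 5.54 CPM in the cortical libraries of mice 1 to 4, against 100.3, 185, 90.2 and 106 CPM in their subcortical libraries. The groups were far apart, with the highest cortical value well under the lowest subcortical one. In all, 45 counts in cortical libraries stood against 1264 in subcortical libraries. The mean was 2.71 ± 2.11 CPM for cortical and 120.3 ± 43.6 CPM for subcortical astrocytes (SD, n = 4 each). The log2 fold change, cortical minus subcortical, was -5.43 (SE 0.40). It was -6.03 without the cortical library of mouse 4, which held 23 of the 45 cortical counts, and -5.14 without that of mouse 2.

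Within each mouse the subcortical level of Cyp26b1 exceeded the cortical one by 67.4-fold in mouse 1, 237-fold in mouse 2, 29.7-fold in mouse 3 and 19.1-fold in mouse 4. The spread of these ratios came with cortical counts of only 3 to 23 per library, but it exceeded counting error. The coefficient of variation was 77.7% in cortical and 36.2% in subcortical libraries, where counting alone would give 29.8% and 5.63%. In subcortical libraries Cyp26b1 stood above 90.5% of the 11781 tested genes by mean CPM. Its cortical place among these genes is not given, since it passed the low-count filter of the fit through its subcortical libraries. The other CYP26 genes, Cyp26a1 and Cyp26c1, had 0 counts in every library. Cyp26b1 was thus the one gene of this breakdown family detected at this depth in either region.

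Aldh1a1 (ENSMUSG00000053279) encodes a dehydrogenase that oxidises retinal to retinoic acid and also acts on other aldehydes. It too was lower in cortical libraries. Its levels were 59.8, 26.9, 27.3 and 27.7 CPM in the cortical libraries of mice 1 to 4, against 131, 88.9, 111 and 133 CPM in their subcortical libraries. The groups did not overlap, although the cortical library of mouse 1 was more than double the other cortical libraries, which lay within 1 CPM of each other. The mean was 35.4 ± 16.3 CPM for cortical and 116 ± 20.7 CPM for subcortical astrocytes (SD, n = 4 each), with a log2 fold change of -1.71 (SE 0.26). The subcortical level was 2.19 to 4.81-fold the cortical one within single mice, with the smallest ratio in mouse 1. Without the cortical library of mouse 1 the log2 fold change was -2.09.

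Transcripts of Aldh1a1 and Cyp26b1 both stood lower in cortical libraries, but by unequal amounts. Per library, the Aldh1a1 level was 5 to 40.2 times that of Cyp26b1 in cortical libraries and 0.481 to 1.31 times in subcortical libraries. Markers of oligodendrocytes, fibroblasts and ependyma moved in the same direction, and those of microglia and striatal neurons in the other. Neuron markers had 1 gene called each way. The part of these cell types in the differences of Aldh1a1 and Cyp26b1 was not tested. Among subcortical libraries the oligodendrocyte sum was highest in that of mouse 1 (5517 CPM). Cyp26b1 was highest in that of mouse 2, which had 2998 CPM of oligodendrocyte markers and the highest sums of fibroblast (213 CPM) and ependymal (95.2 CPM) markers. Without the subcortical library of mouse 1 the log2 fold changes were -5.51 for Cyp26b1 and -1.65 for Aldh1a1.

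**Figure D1:**
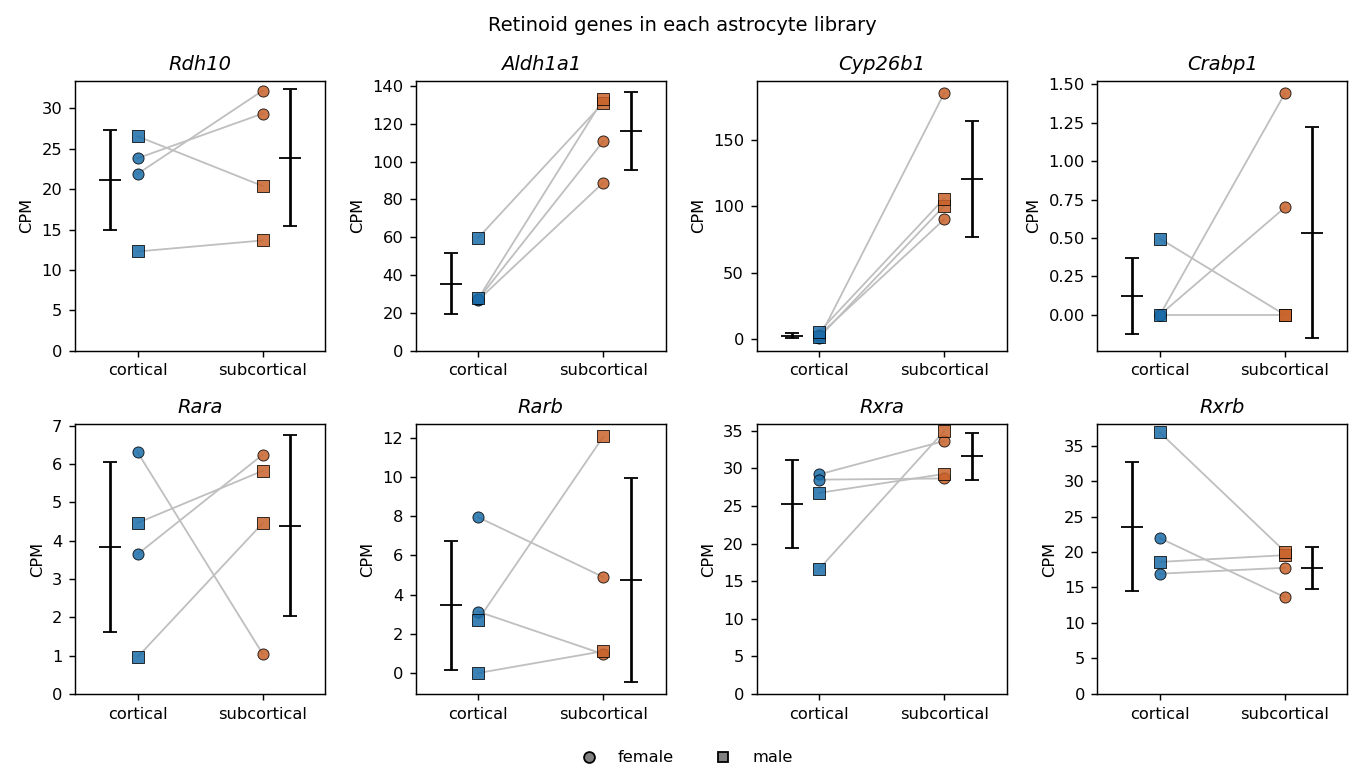
CPM of each retinoid gene in the 4 cortical and 4 subcortical libraries, with a grey line joining the libraries of 1 mouse, circles for females and squares for males. Bars show the mean and SD (n = 4); Cyp26b1 and Aldh1a1 separate by region, at 0.782 to 5.54 against 90.2 to 185 CPM and at 26.9 to 59.8 against 88.9 to 133 CPM, while the other 6 genes overlap.

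Other ALDH1A genes were close to undetected. Aldh1a2, the main retinaldehyde dehydrogenase of the meninges, had 3 counts, all in the cortical library of mouse 2, and Aldh1a3 had 1 count. Aldh1a7, a close copy of Aldh1a1, had 2.73, 1.30, 3.04 and 0 CPM in cortical libraries and 0 counts in all subcortical libraries. Against a floor of 3 counts over the subcortical group, its 29 cortical counts were at least 6.49-fold higher, by counting error only. That bound leaves out the spread between mice, a coefficient of variation of 79.2% in cortical libraries where counting alone would give 37.1%. Aldh1a7 did not pass the low-count filter of the fit. The direction of these few counts was opposite to that of Aldh1a1. How reads shared between such close copies were assigned is not stated in the labels, so the low Aldh1a7 counts are uncertain.

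Rdh10 (ENSMUSG00000025921), the dehydrogenase of the first step, was present in every library at similar levels in both regions. It had 26.5, 21.9, 23.8 and 12.3 CPM in the cortical libraries of mice 1 to 4, against 20.4, 32.2, 29.4 and 13.7 CPM in their subcortical libraries. The regions overlapped, and mouse 4 was the lowest in both. The mean was 21.1 ± 6.20 CPM for cortical and 23.9 ± 8.48 CPM for subcortical astrocytes (SD, n = 4 each), and the log2 fold change was -0.17 (SE 0.34). With raw library totals in place of scaled ones it was 0.05, so no direction is given.

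Crabp1 (ENSMUSG00000032291), the cytosolic carrier of retinoic acid, was at the limit of detection. It had 2 counts in the cortical library of mouse 1 and 0 in the other cortical libraries, against 3 and 2 counts in the subcortical libraries of mice 2 and 3 and 0 in those of mice 1 and 4. The ratio of summed counts, scaled for library size, was 0.268 cortical over subcortical, with an exact 95% counting interval of 0.0256 to 1.64. A difference was not detectable at this depth, and Crabp1 did not pass the low-count filter of the fit.

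The receptors did not separate by region. Rxra (ENSMUSG00000015846), which encodes RXRα, had 16.6, 29.2, 28.5 and 26.7 CPM in the cortical libraries of mice 1 to 4, against 35.0, 33.6, 28.7 and 29.3 CPM in their subcortical libraries. The cortical library was the lower one in all 4 mice, by 1.01 to 2.10-fold, and the ranges overlapped. The log2 fold change was -0.32 (SE 0.28) and -0.17 without the cortical library of mouse 1. Over all tested genes, 26.4% kept 1 direction in every mouse and 13.1% did so with the cortical side lower.

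Rxrb (ENSMUSG00000039656), for RXRβ, had 18.6, 16.9, 22 and 36.9 CPM in the cortical libraries of mice 1 to 4, against 19.6, 17.8, 13.6 and 20.1 CPM in their subcortical libraries. Mouse 4 gave the highest value of each region. The cortical level was higher in mice 3 and 4 and slightly lower in mice 1 and 2, with a log2 fold change of 0.41 (SE 0.33), which was 0.11 without the cortical library of mouse 4. The ratio of Rxra to Rxrb was 0.725 to 1.72 in cortical and 1.46 to 2.10 in subcortical libraries, so that these ratios overlapped as well.

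The RAR genes were scarce. Rara (ENSMUSG00000037992), for RARα, had 4.47, 3.65, 6.31 and 0.963 CPM in the cortical libraries of mice 1 to 4, against 5.83, 6.25, 1.05 and 4.46 CPM in their subcortical libraries. Its lowest values, from 4 and 3 counts, came from the cortical library of mouse 4 and the subcortical library of mouse 3. The log2 fold change was -0.18 (SE 0.82), and 0.08 with raw library totals, so no direction is given.

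Rarb (ENSMUSG00000017491), for RARβ, had 2.73, 3.13, 7.94 and 0 CPM in the cortical libraries of mice 1 to 4, against 12.1, 0.961, 4.89 and 1.11 CPM in their subcortical libraries. This was the most uneven of the 8 genes among those that passed the filter. Its coefficient of variation was 95.7% in cortical and 109% in subcortical libraries, where counting alone would give 26.5% and 28.6%. The log2 fold change of -0.45 (SE 1.00) ranged over alternatives from -1.27 without the cortical library of mouse 3 to 0.56 without the subcortical library of mouse 1. The exons of Rarb overlap those of Top2b on the other strand in the GENCODE M21 annotation, and whether counting used strand is not stated in the labels, so its counts are uncertain. These low and scattered values belong to the gene whose promoter carries the DR5 repeat shown above.

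Summed over both genes of a kind, RXR stood at 35.2 to 63.6 CPM on the cortical side and 42.3 to 54.5 CPM on the subcortical side. RAR stood at 0.963 to 14.2 CPM on the cortical side and 5.57 to 17.9 CPM on the subcortical side. RXR exceeded RAR in each of the 8 libraries, by 3.54 to 66.0-fold in cortical and 3.05 to 8.85-fold in subcortical ones, and the ratio of 66.0 rested on 4 RAR counts.

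In order of mean level, cortical libraries held Aldh1a1, Rxra, Rxrb, Rdh10, Rara, Rarb, Cyp26b1 and Crabp1. The ranges of neighbours in this order overlapped except between Rdh10 and Rara and between Cyp26b1 and Crabp1. In subcortical libraries the order was Cyp26b1, Aldh1a1, Rxra, Rdh10, Rxrb, Rarb, Rara and Crabp1, and neighbours overlapped except between Aldh1a1 and Rxra and between Rxrb and Rarb. From cortical to subcortical libraries Cyp26b1 thus moved from place 7 to place 1. Among the receptors Rxra moved from place 2 to 3, Rxrb from 3 to 5 and Rara from 5 to 7, and Rarb stayed at 6.

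Of the 7 genes that passed the filter, 2 (Cyp26b1 and Aldh1a1) passed an adjusted p of 0.05 in the fit of region by edgeR, both lower in cortical libraries. Over all 11781 tested genes 6.81% passed, 3.42% as higher and 3.39% as lower. The same 2 of 8 had cortical and subcortical libraries that did not overlap, against 12.2% of tested genes (6.54% with cortical higher and 5.64% with cortical lower). Since the genes were chosen with this contrast known, nothing is read from these counts.

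**Figure D2:**
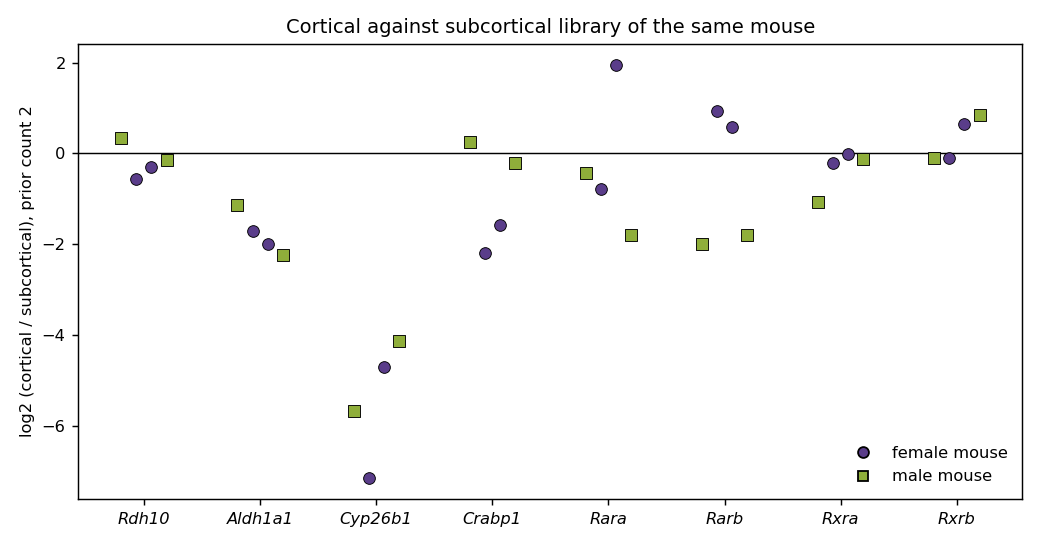
The log2 ratio of the cortical to the subcortical library of the same mouse, with 2 counts added to each, for mice 1 to 4 from left to right within a gene (circles female, squares male). All 4 mice lie under 0 for Cyp26b1, Aldh1a1 and Rxra, and the other genes have mice on both sides.

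Sex was not used to choose the genes and was tested on counts summed per mouse, 2 females against 2 males. None of the 7 retinoid genes that passed the filter was called by edgeR's quasi-likelihood test, where the calls over all 13402 genes were 5 (0.0373%), with 0.00746% higher and 0.0298% lower in females, and 500 genes had an unadjusted p under 0.05. Aldh1a1 was the one retinoid gene of the 7 among these 500. Its level was 49.2 and 61.6 CPM in female mice 2 and 3, against 87.4 and 77.0 CPM in male mice 1 and 4. The log2 fold change, female minus male, was -0.57 (SE 0.23, edgeR adjusted p = 0.999). It was -0.69 (SE 0.35) in cortical and -0.41 (SE 0.33) in subcortical libraries. Cortical levels were 26.9 and 27.3 CPM in females 2 and 3, against 59.8 and 27.7 CPM in males 1 and 4. The cortical value thus leaned on the library of mouse 1.

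The other genes by sex had larger errors relative to their differences. The log2 difference was 0.48 (SE 0.35) for Rdh10 and -0.42 (SE 0.34) for Rxrb, and in both genes mouse 4 lay apart from the other 3 mice. Cyp26b1 had 0.20 (SE 0.30), Rxra 0.21 (SE 0.29), Rara 0.22 (SE 0.81) and Rarb 0.45 (SE 1.04). With 2 mice a sex, differences of this size were not detectable for the scarce receptors.

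Whether the difference by region depended on sex was tested as an interaction. No gene of 13334 passed with edgeR or with DESeq2 (0%), and 502 had an unadjusted p under 0.05 with edgeR. For Cyp26b1 the cortical minus subcortical log2 fold change was -6.10 (SE 0.57) in females and -4.86 (SE 0.53) in males, a difference of -1.25 (SE 0.76, edgeR adjusted p = 1.00). That difference rested on single mice, at -0.0076 without mouse 2, -0.074 without mouse 4 and -2.97 without mouse 3. For Aldh1a1 it was -1.88 (SE 0.35) in females and -1.60 (SE 0.34) in males, a difference of -0.28 (SE 0.48). Rarb was higher in the cortical library of both females and lower in that of both males, and its interaction of 3.12 (SE 2.18) had an edgeR adjusted p of 1.00; it was 5.89 without mouse 1.

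**Figure D3:**
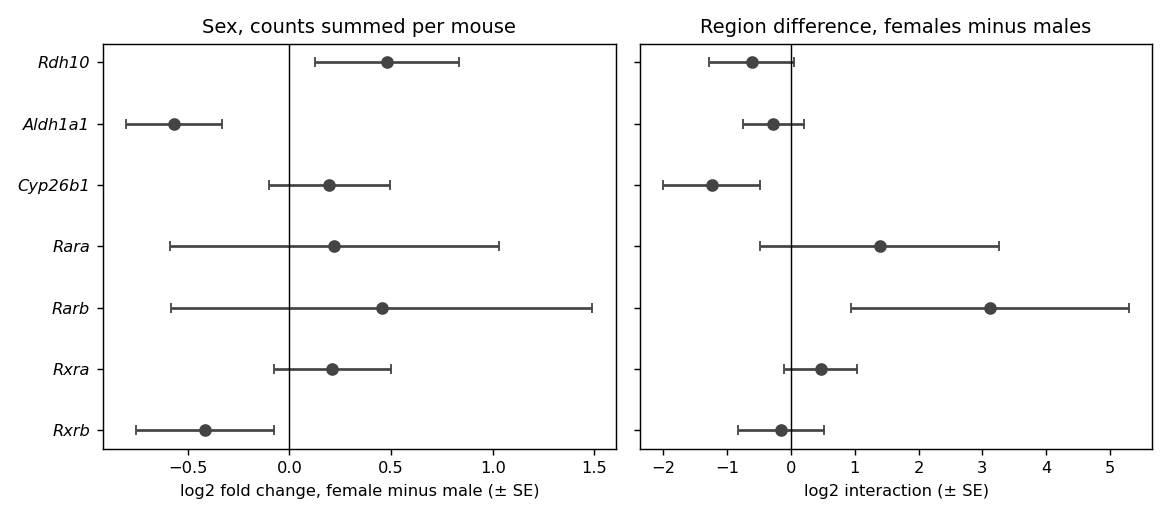
Left, log2 fold change of female against male mice on counts summed per mouse; right, the region difference in females minus that in males; bars show 1 SE. Aldh1a1 (-0.57) lies lowest on the left, and Rarb (3.12, SE 2.18) is the widest on the right; Crabp1 did not pass the filter.

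Around these genes, 74 other genes of retinoid handling and response were counted, and 39 passed the filter. Of these 39, 1 rose and 2 fell in cortical libraries and 36 were not called, or 7.69% called, with a median log2 fold change of -0.13, where all tested genes had 6.81% and -0.01. The lists, too, were chosen with earlier results of these data known, so nothing is read from this share. Adjusted p-values by region for genes of the lists are given below under the same limit. Of the 74, 20 had 0 counts in all libraries. The 3 called genes were the retinol dehydrogenase gene Rdh5 and the homeobox genes Meis1 and Meis2.

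Retinol dehydrogenases and related enzymes had 1 of 8 tested genes lower and 0 higher. Rdh5, an 11-cis retinol dehydrogenase known from the visual cycle, had 23.1, 37.0, 26.9 and 33.0 CPM in the cortical libraries of mice 1 to 4, against 83.2, 63.0, 97.8 and 114 CPM in their subcortical libraries. Every cortical value lay under every subcortical one, and the log2 fold change was -1.58 (SE 0.24; adjusted p = 0.00012, edgeR). Exons of Rdh5 overlap those of Bloc1s1 on the same strand in GENCODE M21, so reads of the pair may have been set aside or shared. Dhrs3, which reduces retinal back to retinol and is the most abundant of this list, had 102 ± 7.31 CPM for cortical and 133 ± 19.3 CPM for subcortical astrocytes (SD, n = 4; edgeR adjusted p = 0.27).

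Of the carrier and storage genes counted here, 0 of 4 tested genes were called. The retinoic acid carrier gene Crabp2 had 0 counts in all libraries. Fabp5, a lipid carrier that can also bind retinoic acid, had the highest mean of the tested genes of this list, with 131 ± 18.6 CPM for cortical and 122 ± 34.0 CPM for subcortical astrocytes (SD, n = 4; edgeR adjusted p = 0.885). The retinol uptake gene Stra6 had 3 counts and the retinol esterifying gene Lrat 1 count over all libraries.

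The other retinoid receptors, Rarg and Rxrg, were not called, and Rarg averaged 12.7 ± 9.83 CPM for cortical and 8.90 ± 6.52 CPM for subcortical astrocytes (SD, n = 4). Nuclear receptors that pair with RXR had 0 of 7 tested genes called. Among them Thra, a thyroid hormone receptor gene, was the most abundant, at 183 ± 19.2 CPM for cortical and 175 ± 19.4 CPM for subcortical astrocytes (SD, n = 4; edgeR adjusted p = 0.905). Corepressors and coactivators had 0 of 10 called. Ncor1, a corepressor gene, came nearest, at 296 ± 37.3 CPM for cortical and 206 ± 9.01 CPM for subcortical astrocytes (SD, n = 4). Its edgeR adjusted p was 0.052, and it passed with DESeq2, limma-voom, raw library totals and a 5 CPM filter. Exons of Ncor1 (with Ttc19 and Pigl), Thra (with Nr1d1) and Bhlhe40 (with 0610040F04Rik) overlap a gene on the other strand in the same annotation, so the doubt given for Rarb holds for them as well.

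Genes known from other systems to be induced by retinoic acid had 1 of 8 tested genes higher, 1 lower and 6 not called. Meis2 had 130, 132, 118 and 142 CPM in the cortical libraries of mice 1 to 4, against 25.0, 41.3, 40.2 and 25.6 CPM in their subcortical libraries, cortical higher by 1.99 on the log2 scale (SE 0.22; adjusted p = 1.5e-06, edgeR). Its relative Meis1 went the other way, at 33.0, 21.6, 36.4 and 51.1 CPM in cortical against 46.2, 82.7, 71.3 and 75.2 CPM in subcortical libraries. The regions of Meis1 overlapped through mouse 4 in cortical and mouse 1 in subcortical libraries, and the log2 difference, cortical minus subcortical, was -0.95 (SE 0.27; adjusted p = 0.030, edgeR). Bhlhe40, a transcription factor gene and the most abundant of the uncalled genes here, had 102 ± 18.9 CPM for cortical and 113 ± 10.7 CPM for subcortical astrocytes (SD, n = 4; edgeR adjusted p = 0.776). In GENCODE M21 the exons of Meis1 overlap those of Gm37818 on the same strand and Gm16140 on the other, so its counts are uncertain too. The Meis1 call was lost with raw library totals (edgeR adjusted p = 0.097) and without the cortical library of mouse 1, 2 or 3 or the subcortical library of mouse 2, 3 or 4 (edgeR adjusted p = 0.065 to 0.106).

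**Figure D4:**
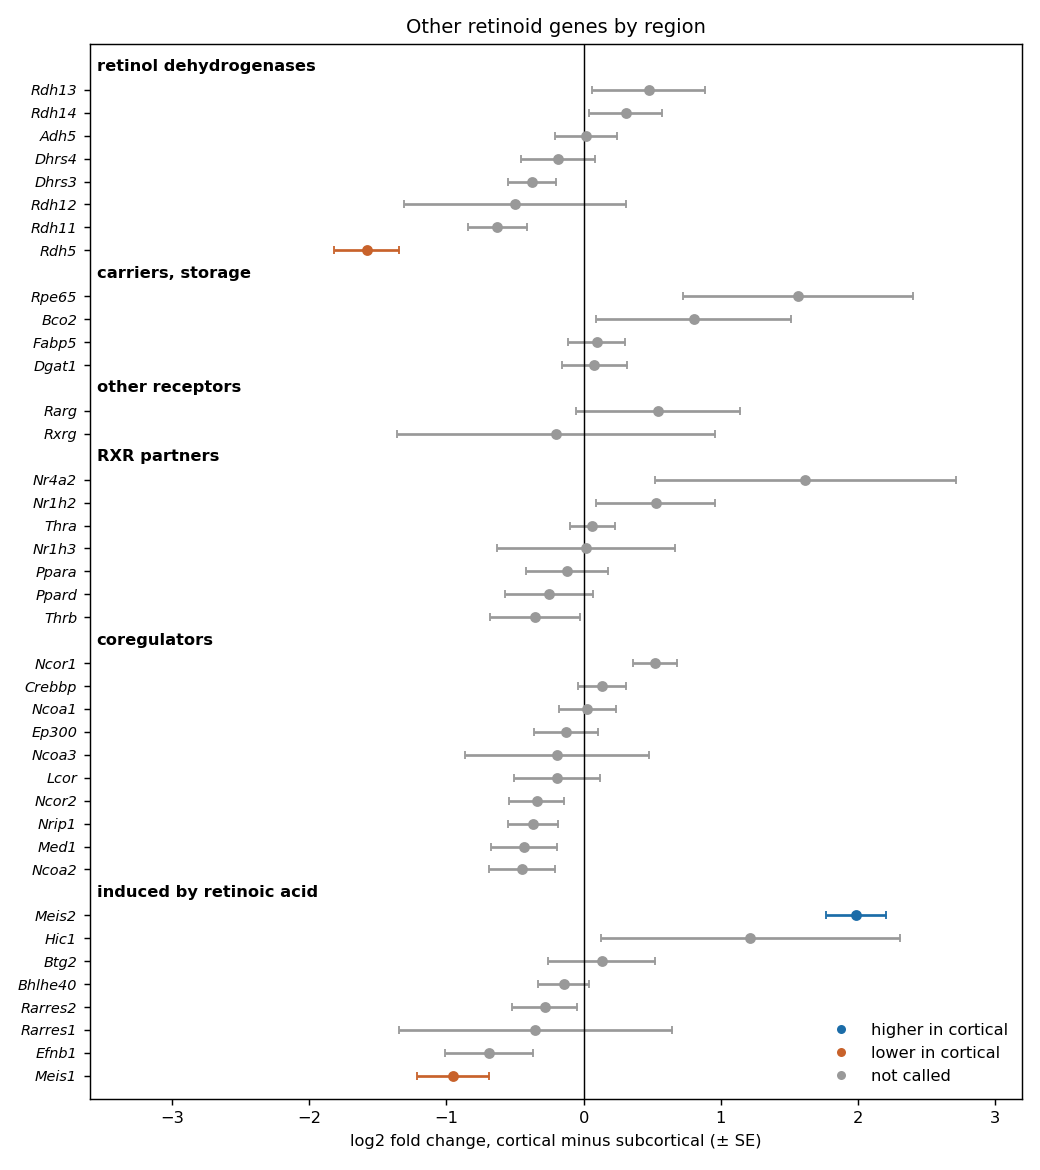
Log2 fold change, cortical minus subcortical, of the 39 tested genes of the other retinoid lists, with bars of 1 SE. Meis2 (1.99) was higher and Rdh5 (-1.58) and Meis1 (-0.95) were lower in cortical libraries; the 36 genes in grey were not called.

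The genes whose levels followed Cyp26b1 most closely over the 8 libraries were Vwa1 (Pearson r of log2 CPM 0.991), Gria1 (0.985), Sfrp5 (0.981), Elovl6 (0.980) and Foxb1 (0.979). Those closest to Aldh1a1 were Phyhipl (0.994), Dynll1 (0.977), Klhl23 (0.967), Tspyl3 (0.967) and Aph1b (0.964). These libraries form a cortical and a subcortical cluster of 4 each and share mice, so the values only describe these libraries. For scale, Foxb1 had 7.37 ± 1.64 CPM for cortical and 128 ± 22.6 CPM for subcortical astrocytes, and Phyhipl 185 ± 29.4 CPM for cortical and 284 ± 10.6 CPM for subcortical astrocytes (SD, n = 4).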

How the data were processed

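Counts of reads per gene, whole numbers with no normalization, were used from the authors' tables as deposited, 1 per library. Lysates were thawed and forward QuantSeq 3′ mRNA libraries made, per the labels' protocols. For the upstream steps, the processing notes of the submitters list STAR 2.6.0, HTSeq 0.9.0, FastQC 0.11.5, DESeq2 1.35.0 and build GRCm39; settings for strand and molecular identifiers were not stated. HTSeq's closing rows were excluded from totals and fits (no feature 30.2 to 40.7%, ambiguous 0.384 to 0.548%). The authors' normalized table was left aside. Of 55417 rows, 52083 matched a symbol.

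All genes were fitted with edgeR 4.0.16 (R 4.3.3), using filterByExpr (10 counts in the smallest group after scaling, 15 in total), TMM factors, quasi-likelihood tests and Benjamini-Hochberg adjustment at 0.05. Region was tested with 4 libraries against 4, sex on counts summed per mouse, and the interaction in a fit with a mean per sex and region. CPM uses effective library sizes, and SE is the log2 fold change over the root of F. P-values by sex measure the spread between mice. Those by region and for the interaction measure the spread between libraries within a region, or within a sex and region. These fits had no term for the mouse, so they did not use the pairing. Alternatives were RLE factors, raw totals, DESeq2 1.42.0, limma-voom 3.58.1, other filters, a sex covariate, the mouse as a block and leaving out libraries or mice. Scripts were tested on simulated data. The 8 genes and all lists were chosen with earlier results of these data known. An item of the lists is not reported here and was left out of their counts after the fits. Other genes named were those called, the most abundant uncalled gene of a list, and the 5 nearest by correlation to Cyp26b1 (largest difference) and Aldh1a1 (highest mean); Adh1, Ttr, Aldh1a2, Aldh1a3, Crabp2, Rxrg, Stra6 and Lrat were chosen after their values were seen. Mouse numbers pair libraries because each mouse gave both; deviations from region means correlated at 0.0195 to 0.0592 for the same mouse and at -0.0841 to 0.0471 otherwise. Replicates within a region (r 0.865 to 0.900) differed by more than sampling noise, and none were merged. Promoters are from RefSeq (GRCm38.p6) and gene overlaps from GENCODE M21, a different build from that of the counts.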

Additional observations from a re-analysis of the deposited data

Results flagged for a closer look

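In 3 of 16 sets of 4 libraries 1 library stood apart from the others, by the gap to its neighbour over the range; for untied values chance does so in about 1 set of 20. Cyp26b1 was 185.0 CPM in the subcortical library of mouse 2, against 90.2 to 106 CPM in the other subcortical libraries (gap 0.834 of the range). Aldh1a1 was 59.8 CPM in the cortical library of mouse 1, against 26.9 to 27.7 CPM in the others (gap 0.974). Crabp1 was 0.496 CPM in the cortical library of mouse 1, from 2 counts, against 0 in the others; with the others tied at 0 the gap is the whole range by construction, so nothing is read from it.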

How the results depend on the processing

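The count of genes called by region (802) was 614 to 1029 over 16 alternatives and 614 to 775 without single libraries, and the other retinoid genes called numbered 2 to 4 in place of 3. Raw library totals changed the split of calls by region: the median of all tested genes was 0.19, against -0.01 with scaled totals, and 682 genes were higher and 244 lower, against 403 and 399. With the replicate block by mouse 885 genes and 3 other retinoid genes were called by region; the block changed no call on Rdh5, Meis1 or Meis2. The 5 genes called by sex became 15 without a low-count filter and 12 to 30 without single mice, and the 0 interaction calls became 1 without the filter, 1 with the replicate block and 1 without each single mouse in turn. None of the 7 retinoid genes was called in 70 alternative values by sex (lowest adjusted p 0.603) or 63 by interaction (0.713). Signs turned in 8 of those by sex and 3 of those by interaction. Within cortical libraries Cyp26b1 by sex was -0.84. Within subcortical libraries Rara, Rarb and Rxra by sex were -0.52, -1.12 and -0.047. Without single mice Cyp26b1 by sex was -0.24 to 0.54, Rarb -0.50 to 3.11 (-0.44 without mouse 4) and Rara -0.18 to 0.77, and the interaction was -0.76 to 0.40 for Aldh1a1 and -0.56 to 0.38 for Rxrb (0.22 without mouse 2). The cause of these shifts was not tested. The RAR genes and Crabp1 had 0 to 34 counts per library, and the spread of the RAR genes exceeded that of counting alone.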

Other observations

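Several retinoid genes were seen in 1 library only or almost so. Adh1, an alcohol dehydrogenase gene, had 22 of its 23 counts in the cortical library of mouse 1, which was also the highest cortical library for Aldh1a1. Choroid plexus markers, too, had their highest cortical sum there, at 37.7 CPM against 1.20 to 21.6 CPM in the other cortical libraries. Whether these go together was not tested. Ttr, the carrier of thyroid hormone and of retinol binding protein made by the choroid plexus, had 1751 of its 1865 counts in the subcortical library of mouse 3. In that library the choroid plexus markers summed to 628 CPM, against 1.92 to 7.91 CPM in the other subcortical libraries. Cyp26b1 in that library was 90.2 CPM, the lowest of the subcortical values, and Aldh1a1 was 111 CPM, within the range of the others. Of the other choroid plexus markers, Kl and Folr1 were at 0 in every cortical library and reached 0.699 and 1.05 CPM in subcortical ones. Clic6 had 0.482 to 18.5 CPM on the cortical side and 0 to 12.2 CPM on the subcortical side. Aqp1 had 0 to 3.04 CPM on the cortical side and 0 to 2.45 CPM on the subcortical side.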
